A study of Mus musculus with 24 samples.

Results

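The regions described here are stretches of the genome of liver iNKT cells (LiNKT cells) whose CpG methylation was already partial in untreated mice and was higher after treatment with αGalCer/CD1d-NPs. They were selected on the 2 group means of the deposited table of 2873 differentially methylated regions, as those with an untreated mean of at least 20% and a treated mean above the untreated one. This rule gave 456 regions. Another 434 regions gained methylation from an untreated mean under 20%, and 1983 regions fell. The rule has no upper limit on the untreated mean: 370 of the 456 regions lay between 20% and 50%, 86 were at 50% or more and 24 at 70% or more, so that "partly methylated" describes most but not all of them.

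LiNKT cells are T cells that carry an invariant TCR for glycolipids presented by CD1d, and were sorted as live TCRβ-intermediate cells that bind αGalCer/CD1d tetramers. All mice were NOD, a strain with spontaneous autoimmune diabetes. Treated mice received iron oxide nanoparticles coated with αGalCer-loaded CD1d at 20 µg of protein a dose, 2 doses a week for 5 weeks from 8 to 10 weeks of age, and cells were taken 2 to 3 days after the last dose, and control mice are labelled untreated, although the study's text also speaks of controls given Cys-NPs and, for the multiome, of vehicle. Whole genome bisulfite sequencing (WGBS) used cells from 7 untreated female mice at 17 weeks and from 4 treated mice at 16 weeks. A figure legend of the study gives 3 replicates per group for it. SmartSeq2 used 3 male mice per group and the multiome 5 untreated and 4 treated male mice, at 13 to 15 weeks as the methods give it. The deposited tables hold 1 methylation value per group and 1 table of SmartSeq2 cells per group, without a link from cell to mouse. No difference could therefore be checked over replicates here, and no test was made. Spreads given are over CpGs or regions, not over mice. The sex of the treated WGBS mice was not given in the sources used here.

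Methylation of the cytosine in a CpG is kept through cell division by Dnmt1 and set at new places by Dnmt3a and Dnmt3b, while Tet enzymes oxidise it on the way to its loss. In T cells, methylation is typically low at active promoters and enhancers and high elsewhere in gene bodies, and an intermediate mean over many cells can come from a mixture of methylated and unmethylated cells or alleles. Regulatory DNA that is in use is usually open, that is, accessible to a transposase, whose insertions are what ATAC-seq counts.

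Sequences of 6 of the regions are shown because the results below turn on them. They include members in Satb1, Pik3r1 and Tcf7, genes of T cell identity and signalling, those in Ubac2 and Samd4b, which are among the regions named for their accessibility, and that in the imprinted gene Mest. They are written 5′ to 3′ on the forward strand of GRCm38, with each CpG in capitals. The first 5 are whole regions and the last is the central 300 bases.
Satb1, chr17:51760303-51760556: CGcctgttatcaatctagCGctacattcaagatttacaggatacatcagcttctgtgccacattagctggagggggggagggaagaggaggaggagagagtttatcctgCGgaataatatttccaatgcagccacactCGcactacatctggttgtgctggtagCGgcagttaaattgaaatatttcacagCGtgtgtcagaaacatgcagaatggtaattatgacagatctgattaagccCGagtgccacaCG
Pik3r1, chr13:101699888-101700138: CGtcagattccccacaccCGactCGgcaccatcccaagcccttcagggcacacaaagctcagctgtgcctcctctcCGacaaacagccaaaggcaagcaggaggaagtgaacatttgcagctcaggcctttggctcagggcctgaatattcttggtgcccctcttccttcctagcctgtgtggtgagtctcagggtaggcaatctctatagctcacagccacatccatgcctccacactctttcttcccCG
Tcf7, chr11:52272610-52272878: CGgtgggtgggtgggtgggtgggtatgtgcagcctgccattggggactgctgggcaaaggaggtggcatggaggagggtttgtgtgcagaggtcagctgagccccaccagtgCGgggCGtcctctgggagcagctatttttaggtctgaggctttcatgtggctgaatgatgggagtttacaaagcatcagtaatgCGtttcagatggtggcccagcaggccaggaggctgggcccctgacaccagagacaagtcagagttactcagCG
Ubac2, chr14:122011892-122012129: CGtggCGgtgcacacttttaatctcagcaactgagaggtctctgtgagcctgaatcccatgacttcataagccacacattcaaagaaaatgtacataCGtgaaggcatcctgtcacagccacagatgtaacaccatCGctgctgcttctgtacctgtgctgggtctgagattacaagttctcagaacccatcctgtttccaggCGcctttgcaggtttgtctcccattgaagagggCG
Samd4b, chr7:28583046-28583258: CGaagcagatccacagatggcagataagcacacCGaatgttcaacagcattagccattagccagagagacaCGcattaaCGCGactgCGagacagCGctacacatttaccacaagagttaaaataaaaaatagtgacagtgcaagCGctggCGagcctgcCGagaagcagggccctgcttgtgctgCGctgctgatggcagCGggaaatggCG
Mest, chr6:30737003-30737302: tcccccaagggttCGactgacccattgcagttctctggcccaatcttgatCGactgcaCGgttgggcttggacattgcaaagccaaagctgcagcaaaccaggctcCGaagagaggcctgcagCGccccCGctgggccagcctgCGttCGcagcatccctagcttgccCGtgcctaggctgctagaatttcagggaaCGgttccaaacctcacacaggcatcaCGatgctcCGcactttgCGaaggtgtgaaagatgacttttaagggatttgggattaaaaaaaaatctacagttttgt

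In 5 of the 6 runs, each CpG was higher in treated cells. In the Satb1 run, the 8 CpGs went from between 5% and 47% in untreated to between 32.5% and 84% in treated cells (mean of both strands); the CpG at base 1 was the lowest in both groups (5% and 32.5%) and that at base 253 the highest (47% and 84%). In the Pik3r1 run, the CpG at base 77 went from 11.5% to 67.5% and that at base 19 from 27% to 86%. The 5 CpGs of the Tcf7 run were at 28.5% to 54% in untreated and 56.5% to 84.5% in treated cells. The CpG at base 204 of the Ubac2 run went from 24.5% to 83.5%, and the least changed of its 6 CpGs, at base 6, from 42% to 80.5%. The Mest run differed from the rest: its 13 CpGs were all at 35% to 54% in untreated and 48% to 57.5% in treated cells, that at base 224 was at 51% and 50.5%, and 21 of its 26 cytosines were higher in treated cells.

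Over all 456 regions, the untreated mean had a median of 33.2% (20% to 87.7%) and the treated mean a median of 67.6% (34.4% to 98.7%). The gain had a median of 31.4 percentage points, with quartiles of 25.2 and 36.6 and a range of 5.04 to 62.1. These are the values that chose the regions and are given as a description; of the 2873 regions, 31% gained methylation. After treatment, 433 regions were at 50% or more, but no more than 69 reached 80%. The regions were 201 to 7199 bases long (median of 402.5) and held a median of 21 CpG cytosines counted on both strands, which is 10 CpG dinucleotides. The smallest gains were in long regions that were highly methylated in both groups, such as the region in Tbc1d16 (155 CpG cytosines, 79.3% to 84.3%), that in Rai1 (205, 80% to 86.8%) and that in Vps37b (277, 62.7% to 69.6%); the 10 longest regions gained between 5.04 and 25.7 points. At the limit of the rule, the region in Atxn2 with an untreated mean of 20% (treated 58.3%) was a member, and that in Ptpn3 with 19.99% (54.7%) was not.

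The table of single cytosines comes from the same reads and groups as the means that chose the regions, so that its direction was largely set by the rule and is given as a description. The 12136 CpG cytosines in the regions had a mean of 42.2% ± 25.2 (SD over cytosines) in untreated and 68.1% ± 21.7 in treated cells, and 11419 of them (94.1%) were higher in treated, 564 lower and 153 equal; the share higher was 93.9% in the other gaining regions and 35.9% over all regions. In 329 regions every cytosine was higher, and in 427 regions at least 90% were. Cytosines of low methylation were fewer in treated cells: 20.6% of the cytosines were under 20% methylation in untreated and 2.79% in treated cells, while those at 80% or more went from 10.3% to 36.0%. The gain was flat along the regions, at 23.9 to 27 points in each of 10 equal bins along their length, without a peak at the centre. Cytosines outside CpGs stayed near the floor, at 1.67% in untreated and 1.97% in treated cells over 62066 cytosines in the regions, beside 1.68% and 1.78% in the falling regions. The conversion rate of the bisulfite reaction and the read depth are not in the tables used here, and what sets this floor was not tested.

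**Figure D1:**
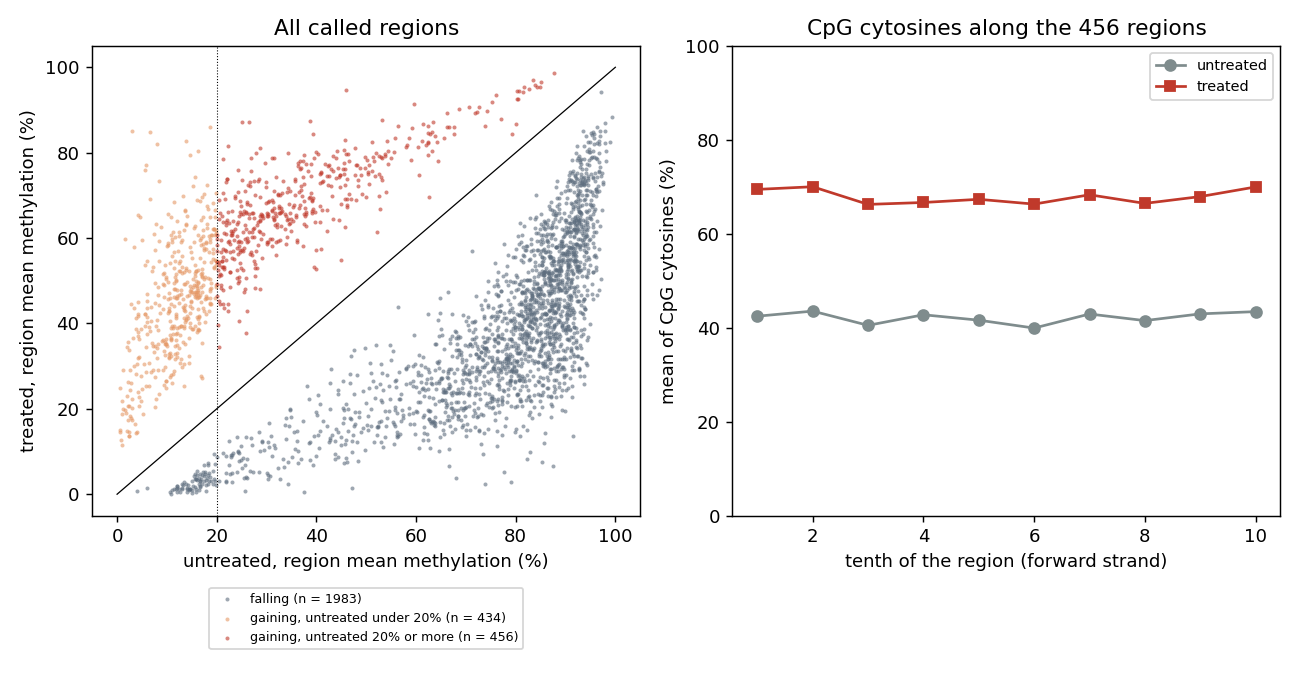
Left, mean methylation (%) of each called region in untreated (x) and treated cells (y), with the 456 regions described here in red to the right of the dotted line at 20%, other gaining regions in orange and falling regions in grey. Right, mean methylation (%) of CpG cytosines in 10 equal bins along the 456 regions; treated lies 23.9 to 27 points above untreated in every bin.

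The means in the region table and those of the cytosines did not match everywhere. The untreated mean was a median of 1.49 points apart between the tables and the treated mean 0.0550 points. In 14 of the 456 regions (3.07%) the untreated means differed by more than 10 points, and in all 14 the cytosine table was the higher one; over all 2873 regions it was 63 (2.19%). Of these 14 regions, 10 were made of repeats over at least 50% of their length, against 16 of all 456. They include 3 of the 5 regions with the largest gain. The region 761 kb from the start of Gria3 went from 25.1% to 87.3% in the region table but from 85.9% to 89.0% over its 22 cytosines, that near Zcchc9 from 26.5% to 87.3% against 86.4% to 89.4%, and that in Rap1gap2 from 21.3% to 78.6% against 61.4% to 91.0%. The other 2 of the 5 were alike in both tables. They were an intron of Lpcat3, a phospholipid acyltransferase (22.3% to 81.5%, cytosines 25.9% to 81.4%), and an intron of Lonp2, a peroxisomal protease (28.6% to 81.2%, cytosines 33.1% to 81.1%). In 2 regions, both in repeats between genes on chromosomes X and Y, the cytosine mean was lower in treated cells. Applied to the cytosine means, the rule gives 513 regions, of which 448 are among the 456.

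**Figure D2:**
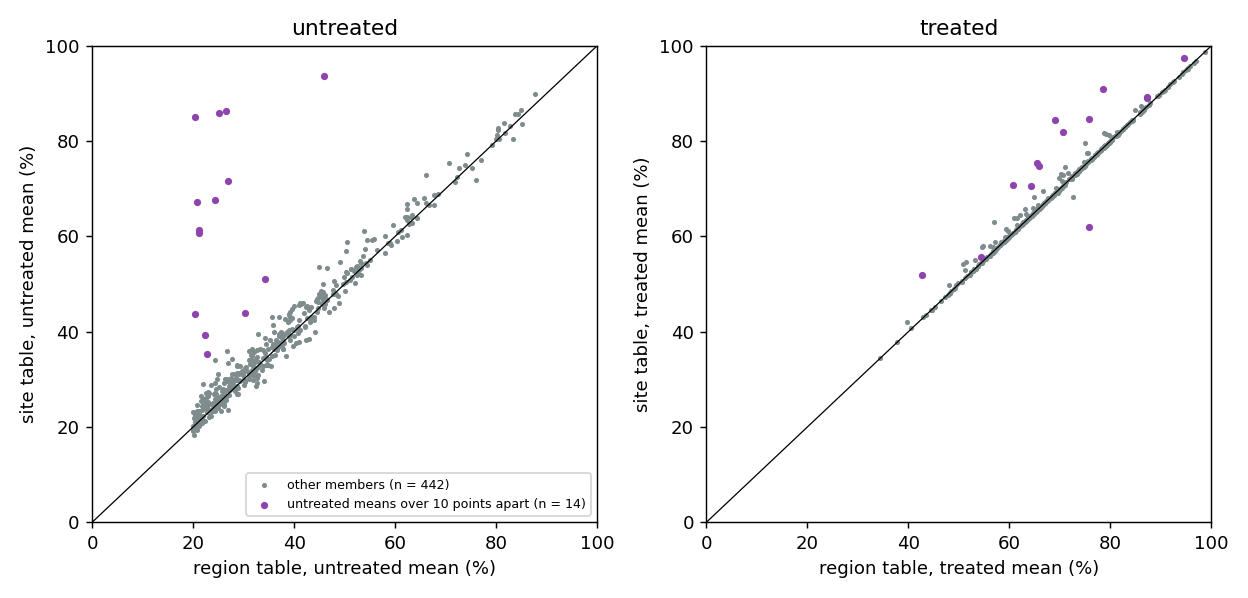
Mean methylation (%) of the 456 regions in the region table (x) and over their CpG cytosines in the site table (y), in untreated (left) and treated cells (right). The 14 purple points are the regions whose untreated means are over 10 points apart; they lie above the diagonal on the left and closer to it on the right.

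The regions lay mostly inside genes. Of the 456, 383 (84.0%) overlapped a gene body of GENCODE M21, compared with 74.8% of all 2873 regions and 72.2% of the falling ones. Ordered so that each region counts in a single class, 80 (17.5%) were within 2 kb of a start, 87 (19.1%) in another exon, 224 (49.1%) in an intron and 65 (14.3%) between genes; for the falling regions these shares were 13.2%, 12.4%, 49.6% and 24.8%. A single start, the outermost one, was taken for each gene. These starts were largely those of noncoding genes, since 30 regions (6.58%) were within 2 kb of such a protein-coding start. Inner starts of a gene were not considered, so that the shares at starts may be too low. The median distance to a protein-coding start was 26.6 kb. Chromosome 11 had most members (38, 31.1 per 100 Mb) and also most called regions per 100 Mb (185), while X had 5 members (2.92 per 100 Mb) among 17.5 called regions per 100 Mb. The members were 16.8% of the called regions on chromosome 11 and 16.7% on X, close to the 15.9% over the genome, and Y held 1 member of 4 regions. The member on Y lies wholly in repeats. Since the untreated WGBS mice were female, its untreated value cannot be that of a Y chromosome.

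Their sequence was richer in G and C than that of the regions that fell. The median GC content was 50.7% (45.9% in falling regions) and the median density 2.31 CpG per 100 bases (1.95), and 33 regions (7.24%) met the criteria of a CpG island (2.57% of falling regions). The regions that gained from under 20% were like them, with 51.5% GC, 2.22 CpG per 100 bases and 9.45% islands. Binding motifs were searched for as letters on both strands in the 200 bases around each centre. TGANTCA, the motif of AP-1, the factor formed by Fos and Jun proteins downstream of the TCR, was in 13 of the 456 windows (2.85%), in 4.15% of the other gaining and in 23.2% of the falling regions, and in 17.1% of all regions. TGGAAA, the core of the NFAT site, was in 12.5% against 26.8% of the falling regions (22.7% of all). The order was the other way for CAGGTG, a site of E proteins such as E2A (18.9% against 11.1%, 13.7% of all), and for TGTGGT, a RUNX site (25% against 17.9%, 20% of all). The remaining motifs were AGATAA, a site of GATA factors, in 10.7% of the windows, 9.83% of the falling and 9.99% of all regions, GGGCGG (KLF/SP) in 7.24%, 3.38% and 5.05%, CTTTGAT (TCF/LEF) in 4.82%, 2.98% and 3.41%, AGGGGGC (part of the CTCF site) in 3.29%, 1.77% and 2.37%, and AGGTGTGA (T-box) in 0.877%, 1.31% and 1.22%. The NF-kB motif was in 0.219%, 0.756% and 0.557%. AP-1, GATA, NFAT and TCF/LEF motifs are poorer in G and C than the windows, and the part of base composition in these shares was not tested.

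A gene body held a member in 398 genes, 343 of them protein-coding, and 69 of the 343 also held a region that fell. Of the 456 regions, 77 (16.9%) had another gaining region within 10 kb and 31 (6.80%) a falling one. Over all 2873 regions, most of which fell, the shares were 7.73% and 21%. Of the other gaining regions, 18.9% had another gaining region within 10 kb, and of the falling regions 27.7% had another falling one. Protein-coding genes with 3 or more members were Satb1 (5), Gm20388 (4), Crtc3, Med12l, Pik3r1, Ramp1 and Ttll5 (3 each). Gm20388 is a gene model of 4434882 bases that runs over many other genes, and its 4 members lie in Rnf166, Irf8, Gse1 and Galnt2.

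Satb1 encodes a chromatin organiser that folds loci in T cells. It held more gaining regions than any other gene: 5 members, 3 regions that gained from under 20%, and none that fell. The members lay 8.55, 16.8, 24.2, 28.1 and 72.9 kb into the gene of 97.1 kb. That at 28.1 kb (chr17:51804551-51805908) went from 25.9% to 66.1% and that at 24.2 kb (chr17:51808755-51809346) from 28.5% to 73.9%, and both overlap exons. The intronic member at 16.8 kb (chr17:51816036-51816866) went from 20.4% to 64.5%, and that at 72.9 kb, which is at the start of the noncoding gene C230085N15Rik and is the first of the sequences shown, from 23.0% to 61.6%. The member nearest to the start (chr17:51824301-51825178) gained least, from 25.5% to 47.3%. Between them lay the lowest region of the gene, which went from 2.36% to 20.7%. Of the 125 CpG cytosines in the 5 members, 122 were higher in treated cells.

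**Figure D3:**
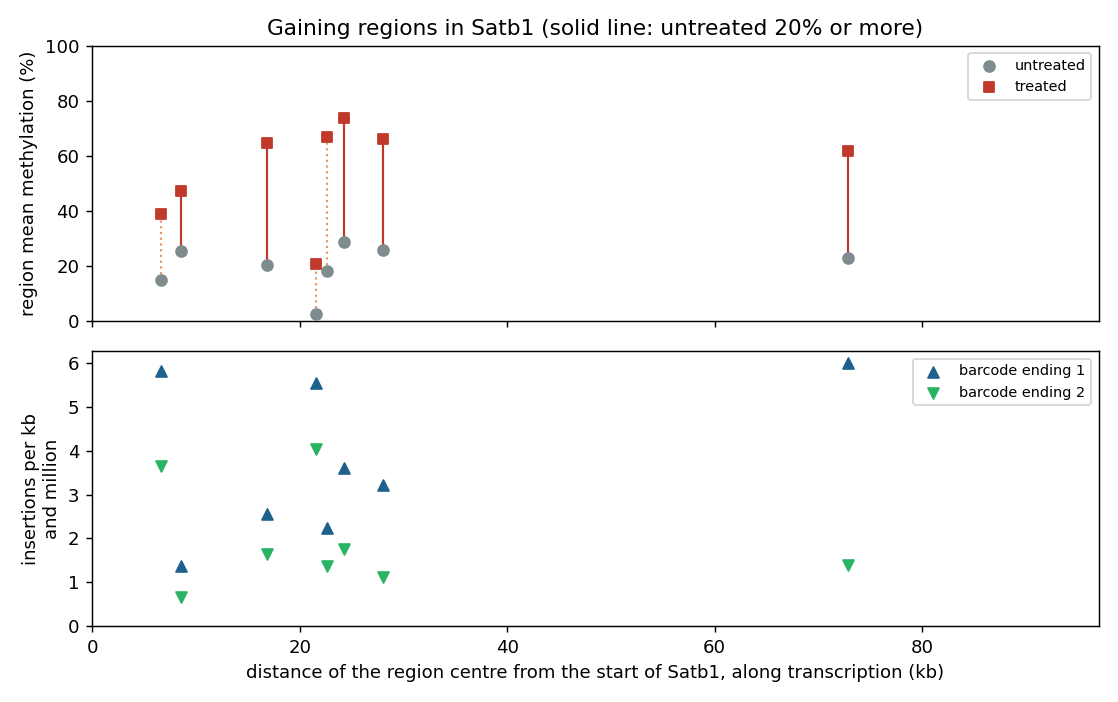
Above, mean methylation (%) of the 8 gaining regions in Satb1 in untreated (grey circles) and treated cells (red squares) by distance from the start of the gene (kb); solid lines mark the 5 regions that were at 20% or more in untreated cells. Below, normalised transposase insertions per kb in the same regions by barcode ending, with ending 1 above ending 2 in each of the 8.

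Other genes held 3 members each. Pik3r1 encodes p85α, the regulatory subunit of phosphoinositide 3-kinase. Its members were at 21.8% to 73.1% (chr13:101699888-101700138), 21.5% to 61.1% (chr13:101700501-101701276) and 31.8% to 63.1% (chr13:101732611-101733185), all in introns. Ramp1 encodes the partner of the receptor for the neuropeptide CGRP, and its members, within 10 kb of its start, went from 24.3% to 63.8%, 26.6% to 61.3% and 51.2% to 75.7%. Crtc3, a coactivator of CREB, had members at 58.1% to 81.7%, 28.4% to 73.4% and 29.1% to 65.4%. The members in Med12l lie in the receptor genes Gpr171, P2ry12 and P2ry14 that it contains (27% to 60.3%, 34.5% to 63.3% and 38.4% to 69.4%). In Ttll5, a tubulin glutamylase, the members went from 32.8% to 62.8%, 21.8% to 57.0% and 77.0% to 88.0%.

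The lowest q-value was that of a region in a coding exon of Kcnn4, the calcium-activated potassium channel of T cells (chr7:24377127-24377657, q = 3.98e-27 as deposited by the authors for the same contrast). All its 95 CpG cytosines were higher in treated cells, and its mean went from 23.5% to 55.1%. The region 3953 bases from the start of Baiap2, at the start of the noncoding gene Gm11766 (chr11:119938159-119938810), gained 51.7 points, from 22.2% to 73.8%. Egr3 is an early response gene of TCR signalling, and the region in its coding exon, within 2 kb of its start, went from 43.3% to 75.7%. It was followed by the member of Satb1 at 28.1 kb, an intron of Gfod1 near Tbc1d7 (24.7% to 68.7%), the untranslated end of Cstf1, an mRNA cleavage factor (24.9% to 65.6%), an exon of Cask (20.5% to 54.4%, with a cytosine mean of 43.6% in untreated cells), Nfatc2 (34.3% to 79.9%), Bach2 (39.2% to 69.4%) and the start of Zfp683 (39.0% to 74.5%). At protein-coding starts, the lowest q-values were those of Egr3, Zfp683, Col16a1, a collagen gene (36.8% to 67.7%), Il18r1, and Gpr183, the oxysterol receptor that guides lymphocytes (44.7% to 72.0%).

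A member lay in the body or within 2 kb of the start of 346 of 21924 protein-coding genes (1.58%), and a falling region of 920 (4.20%). Lists of genes of T cell biology are given beside these shares, with no test, since the lists were chosen with earlier results known. Of 24 transcription factors of iNKT and T cells, 3 had a member (12 had a falling region). Tcf7, the TCF1 factor of naive and memory T cells, went from 38.3% to 75.6% in an intron. Bach2, a repressor that restrains effector differentiation, had 2 members (39.2% to 69.4% and 28.6% to 64.1%) among 8 regions that fell. Zfp683, or Hobit, a factor of tissue-resident lymphocytes, was the third, and also held 1 falling region. Of 24 cytokines and their receptors, 2 had a member (8 had a falling region): Il18r1, a chain of the IL-18 receptor (24.6% to 56.8% at its start, 42 CpG cytosines), and Tgfbr2, a chain of the TGF-β receptor (31.5% to 78.8%). Of 18 genes of the TCR complex and proximal signalling, 3 had a member (13 a falling region): Cd247, the ζ chain (59.7% to 91.5%, beside 2 falling regions), Nfatc1 (44.8% to 74.7%, beside 4) and Nfatc2, which had 2 (34.3% to 79.9% and 29.2% to 64.7%). Of 18 chemokine and homing receptors, 1 had members (5 a falling region): Ccr9, a receptor for homing to the gut (34.3% to 71.6% and 58.5% to 83.5%, beside 1 falling region). None of 18 checkpoint and costimulatory receptors (8 with a falling region), 14 NK receptors and cytotoxic effectors (1) and 14 genes of DNA methylation (1) held a member. Outside gene bodies, the region 17003 bases from Icos, a costimulatory receptor, went from 47.9% to 68.9% and that 42826 bases from Cd6 from 24.4% to 65.2%.

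Imprinted genes and the X chromosome carry methylation on a single allele or on the inactive X, which gives intermediate means. Of 32 imprinted genes, 2 held a member (1 a falling region), beside the shares over all genes given above, and their gains were 12.9 and 16.5 points. Mest went from 40% to 52.8% (42 CpG cytosines, 13361 bases from its outermost annotated start) and Zrsr1, whose start and untranslated exon were covered, from 40.9% to 57.4% (34). Whether the Mest region lies at an inner start of the gene was not looked at. By the cytosine table they were at 45.4% ± 6.39 and 45.7% ± 6.39 (SD over cytosines) in untreated, and at 52.8% ± 5.12 and 57.4% ± 5.03 in treated cells, an even level from CpG to CpG that is seen in the Mest run above. On X, the regions in Cask and Rbbp7 were dense in CpG (13.4 and 14.2 per 100 bases), and over their cytosines went from 43.6% to 55.7% and from 39.3% to 51.9%. The untreated mice were female, and the sex of the treated mice, not given, cannot be told apart from treatment here.

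Accessibility was not used by the rule. The multiome fragments hold barcodes of 2 endings, 1 for each library, which no source used here ties to a treatment, so that values are given by ending. Barcodes with at least 1000 fragments were 8565 with 81408882 fragments in ending 1 and 7237 with 74870358 in ending 2, and 100 barcode sequences occurred in both. No doublet caller was run, and barcodes that hold more than 1 cell were not removed. In the 456 regions, ending 1 had 4.03 normalised insertions per kb, that is, per kb with each ending scaled to 1e+06 insertions (exact Poisson interval of 4.02 to 4.05, counting error only) and ending 2 had 2.31 (2.30 to 2.33). Over all 2873 called regions, ending 1 had 3.59 and ending 2 had 5.29. The medians over the members were 2.86 and 1.52. At 5 to 10 kb on either side, the levels were nearly alike, with medians of 1.19 and 1.07. In 100-base bins, ending 1 was at 4.57 and ending 2 at 2.54 at the centre, against 2.69 and 2.24 at 950 bases before it. At 2950 bases before the centre both were higher again, at 3.42 and 2.97, and at 2950 bases after it they were at 2.79 and 2.49, so that in ending 2 the centre did not stand above both edges.

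The endings differed in opposite ways in gaining and falling regions. Among members with at least 20 insertions, 157 of 442 (35.5%) had at least 2-fold more in ending 1 (11.7% of all regions), and 13 (2.94%) at least 2-fold more in ending 2 (52.1% of all regions). Ending 1 was above ending 2 in 377 of the 442 (85.3%). In the other gaining regions, 36.6% were 2-fold higher in ending 1 and 0.983% in ending 2, while among falling regions 0.276% were 2-fold higher in ending 1 and 75.6% in ending 2. The median log2 ratio of ending 2 over ending 1 was -0.72 in the members, -0.79 in the other gaining regions and 2.05 in the falling ones. The ratio was also on the side of ending 1 for the 88 members in a protein-coding gene that also held a falling region (36 at least 2-fold higher in ending 1, 3 in ending 2) and for the 31 within 10 kb of a falling region (9 and 1).

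**Figure D4:**
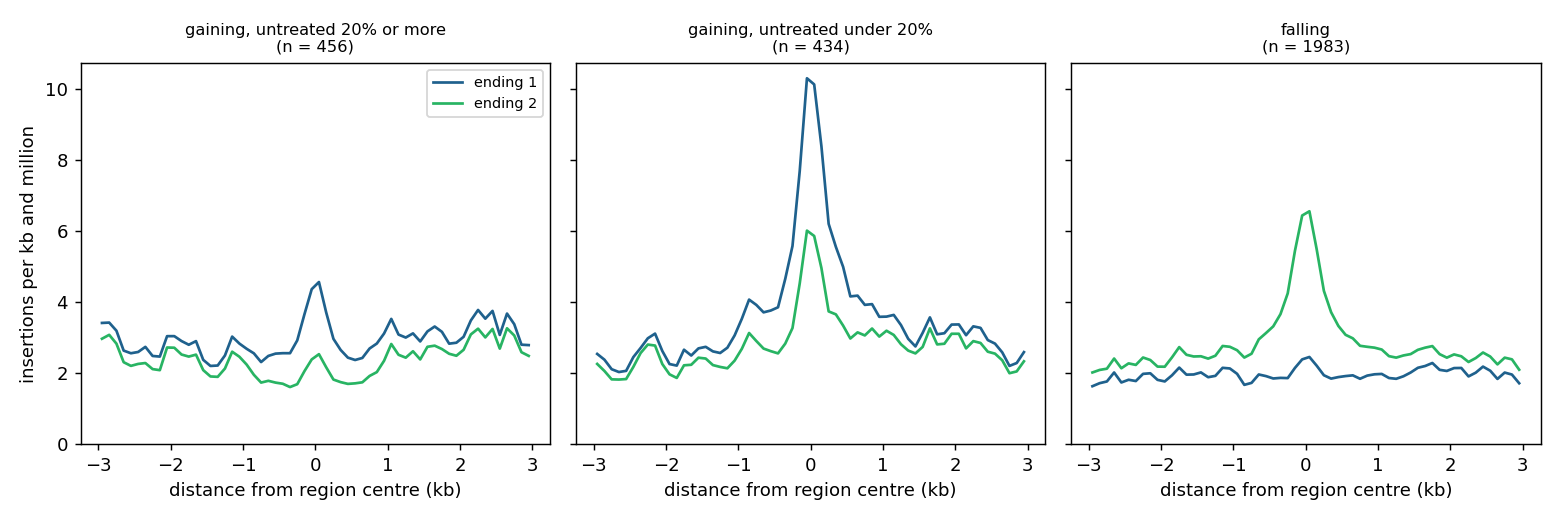
Normalised transposase insertions per kb by distance from the region centre (kb), in 100-base bins, for the 456 members (left), the other gaining regions (middle) and the falling regions (right). At the centre of the members ending 1 (blue) is at 4.57 and ending 2 (green) at 2.54; the order of the endings is reversed in falling regions.

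Members with a lower untreated mean were more open. Over both endings, 214 members (46.9%) were at least 2-fold above their flanks, where 57.7% of all regions were, and 141 (30.9%) were below them. The order depended on the ending. In ending 1, 53.1% of members and 41.6% of all regions were at least 2-fold above their flanks. In ending 2, these shares were 40.6% and 61.0%. Members at 20% to 30% in untreated cells had a median of 4.63 normalised insertions per kb in ending 1 and 2.21 in ending 2, those at 30% to 50% had 2.55 and 1.41, and those at 50% or more 1.10 and 0.796. Over 442 members, the rank correlation of the untreated mean with the level was -0.52 in ending 1 and -0.48 in ending 2, and that of the gain with the log2 ratio of ending 1 over ending 2 was 0.36. These points share the same libraries, and are a description. The gain was itself tied to the untreated mean, so that these relations are not separate. Its median was 35.4 points in members at 20% to 30%, 31.3 at 30% to 50% and 20.2 at 50% or more. The share with 2-fold more in ending 1 was 43.2% of the 176 members under 30% and 20.7% of the 82 members at 50% or more.

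Ranked by insertions per kb over both endings, the most open member was an exon of St3gal2, a sialyltransferase, with 37.4 normalised insertions per kb in ending 1 and 35.8 in ending 2 (39.6% to 53.2% methylation), followed by Zrsr1 (37.8 and 28.8), a region 19.6 kb from Cd7 (22.9 and 29.8), the Ubac2 run (38.5 and 6.51) and an intron of Sae1, a subunit of the SUMO-activating enzyme (24.5 and 10.0). The Ubac2 run, from 26.8% to 78.8% methylated, was 5.91-fold higher in ending 1. The largest excess of ending 1 was in introns of Cox10, a factor of cytochrome oxidase assembly (146 insertions against 16, 8.39-fold after normalisation), and in the Samd4b run, which also lies in Pak4 (276 against 33, 7.69-fold), and then in Kif3a (7.26-fold), 20.2 kb from Il4, Abhd16a (7.22-fold) and Btbd11 (7-fold). These gained 36.3 to 48.7 points of methylation. The 13 regions at least 2-fold higher in ending 2 held 5 to 34 insertions in ending 1 and 15 to 94 in ending 2, and 7 of them were at 50% or more in untreated cells. The largest ratios were those of Cd83 (6 against 50, 80.4% to 94.5%), Acoxl (14 against 65, 51.1% to 82.6%), a noncoding gene 202260 bases from Prdm1 (5 against 19, 63.3% to 87.1%), Abcc4 (6 against 21, 39.2% to 65.8%) and Plekha2 (34 against 94, 87.7% to 98.7%). The second member of Bach2 was also among the 13 (21 against 43). All 5 members of Satb1 had more in ending 1, by 1.55-fold to 4.30-fold, the Satb1 run most.

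SmartSeq2 counts were compared for genes that hold a member. The 273 untreated and 251 treated cells held 172559865 and 149084200 counts with medians of 861 and 850 genes per cell, so that most genes were seen in few cells. Defining T cell genes were found in both groups, with Cd3e in 81.3% and 79.7% of cells and Trac in 83.9% and 74.1%, and all 6 genes of the iNKT and T cell list were detected, although Zbtb16, the PLZF factor that defines iNKT cells, was seen in 12 untreated and 16 treated cells only. The 3 macrophage markers summed to 1793 CPM in treated and 0.0116 in untreated cells, the 4 hepatocyte markers to 82.3 and 0, and the 3 B cell markers to 0 and 0.0116. In all, 14 treated and 3 untreated cells had a count of any of these, and gene counts without those cells are given below; their part in the differences was not otherwise tested.

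Of 343 protein-coding genes with a member in the body, 293 had at least 10 counts. On the scale of log2 of treated over untreated with 1 CPM added, their median was -0.13 (quartiles of -1.09 and 0.74), that of 742 genes with a falling region 0.23, and that of all 10805 protein-coding genes measured 0.06. A level at least 2-fold lower in treated cells was seen for 79 genes (27%; 19.1% of all genes) and at least 2-fold higher for 60 (20.5%; 23.4% of all genes). With the cells that carry another cell type's marker left out, these were 81 (28.03%) and 57 (19.72%) of 289 genes, and the median was -0.17. Over all protein-coding genes without these cells, 20.2% were at least 2-fold lower and 21.2% at least 2-fold higher, with a median of 0.02. The gap to all genes in the share higher was thus smaller without these cells. The 2 prefixes in the cell names, which split each group, gave medians of -0.28 and -0.23 on their own. Genes with a member but no falling region had a median of -0.20 (231 genes), and those with both had -0.05 (62 genes). This order was not stable, since with all deposited cells the medians were -0.04 and -0.11. In the 2 prefixes on their own they were -0.29 and -0.09, and -0.25 and 0.07. The 25 measured genes with a member within 2 kb of the start had a median of -0.28, with 9 at least 2-fold lower and 7 higher. Fewer cells with a transcript and less of it per cell cannot be told apart in these sums.

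**Figure D5:**
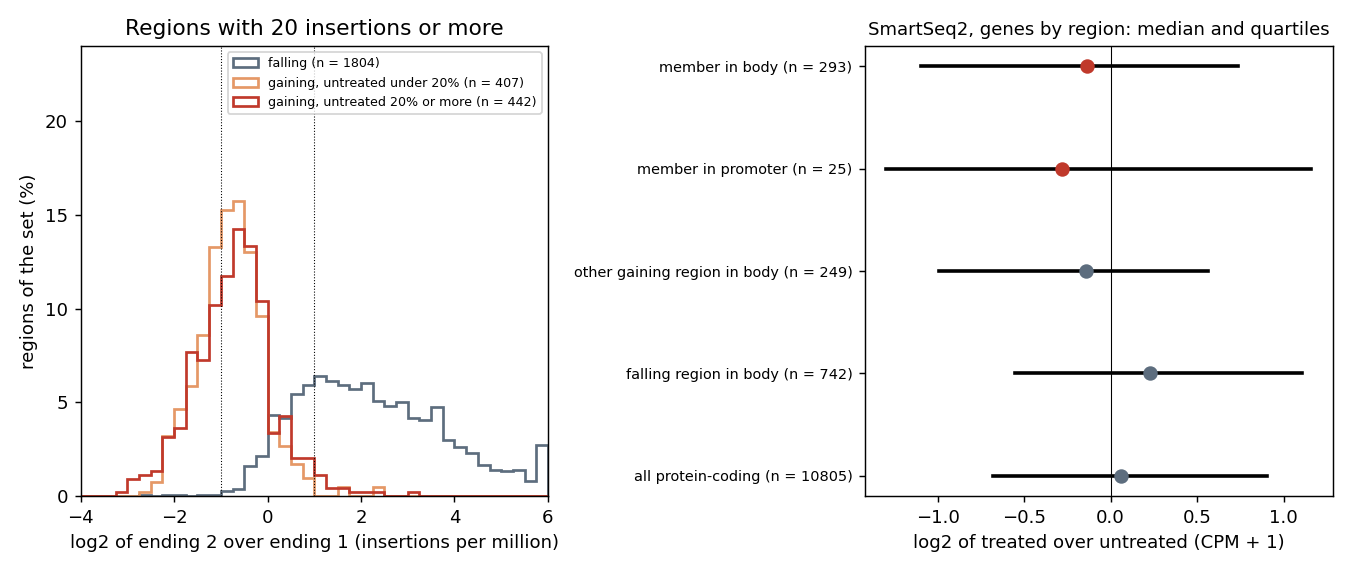
Left, share of regions (%) by the log2 ratio of normalised insertions in ending 2 over ending 1, for regions with at least 20 insertions, with dotted lines at 2-fold; values above 6 are drawn in the last bin, and falling regions with none in ending 1 are left out. Right, median (point) and quartiles (bar) of the log2 ratio of SmartSeq2 CPM, treated over untreated with 1 CPM added, over genes of each kind; genes with a member lie at -0.13 and all protein-coding genes at 0.06.

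A minimum of 500 counts, with detection in 20% of the cells of either group, left 6 protein-coding genes with a member. Ramp1, Txnip and Rapgef6 reached 20% of cells in the untreated group alone, so that no shared direction can be read from the 6. Ramp1, with its 3 members, was lower in treated cells by 2.74-fold, from 338 CPM (exact Poisson interval of 336 to 341, counting error only) to 123 (122 to 125), and was seen in 23.8% (18.9 to 29.3, exact binomial) and 7.97% (4.93 to 12) of cells. Txnip, an inhibitor of thioredoxin and of glucose uptake, was 2.06-fold lower (663 and 322 CPM, in 37.7% and 19.5% of cells) and had a member at 47.7% to 74.9%. Rcbtb2 was at 1074 and 699 CPM, Rapgef6, a guanine nucleotide exchange factor, at 224 and 158, and Fyb, the adaptor ADAP of T cell adhesion, at 281 and 212. Nfatc1, a calcium-driven factor of T cell activation, was at 158 and 296 CPM. Falling regions lay in the bodies of Nfatc1 (4) and Fyb (2). Each of the 6 had the same sign in cells of either prefix.

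Genes described above stood on both sides, most of them in few cells. Crtc3 was at 11.4 CPM in untreated and 30.5 in treated cells (7 and 5 cells), Lpcat3 at 37 and 81.5 (6 and 11 cells), Cstf1 at 39 and 77.7 (5 and 9 cells), Gfod1 at 0.0232 and 4.68 (3 and 7 cells) and Rnf166 at 56.7 and 105 (18 and 19 cells). Each of these 5 had the same sign in either prefix. Lonp2 was at 155 and 97.8 CPM (27 and 14 cells). Kcnn4 was at 50.7 and 53 CPM (6 and 7 cells) and Ttll5 at 22.6 and 29.2 (7 and 6 cells), and the sign differed between the prefixes for both. Pik3r1 was at 202 CPM in untreated and 88.1 in treated cells (13.6% and 7.97% of cells), and Satb1 at 151 and 127 (17.6% and 15.5%). Of the genes with a member at the start, Il18r1 was at 160 CPM in untreated and 37.3 in treated cells, and was seen in 17.2% (12.9 to 22.2) and 5.58% (3.08 to 9.18) of them. Zfp683 was at 36.2 and 33.8 CPM and Gpr183 at 48.3 and 39.5. Tgfbr2 was at 141 and 62.6 CPM (24 and 16 cells), Nfatc2 at 83.3 and 16 (17 and 10 cells), Tcf7 at 31.9 and 21.4 (11 and 4 cells) and Cd247 at 257 and 271, and the sign differed between the prefixes for Tcf7, Zfp683 and Cd247. Ccr9 was seen in 3 untreated cells and in 0 of 251 treated cells, which allows a share of cells with a read of up to 1.2% (3 cells) and does not limit the share that expresses it. Bach2 was at 0.0522 and 31 CPM (4 and 8 cells), and Egr3 was seen in 0 untreated and 4 treated cells (7.94 CPM). Of the genes at the 5 regions with the largest excess of ending 1, Btbd11 was at 95.5 and 16.3 CPM (14 and 3 cells), Cox10 at 38 and 9.52 (11 and 2 cells), Abhd16a at 169 and 147 (19 and 13 cells), Samd4b at 13.4 and 10.1 (5 and 4 cells), Pak4 at 15.4 and 0 (3 and 0 cells) and Kif3a at 3.84 and 11.8 (6 and 3 cells), and the sign differed between the prefixes for Abhd16a, Samd4b and Kif3a. At the regions with the largest excess of ending 2, Plekha2 was at 114 and 123 CPM (20 and 16 cells) and Abcc4 at 41.3 and 31.9 (6 and 5 cells). Acoxl was at 7.26 and 9.85 CPM (1 and 2 cells), and Cd83 had no counts. The sign differed between the prefixes for Plekha2, Abcc4 and Acoxl. Of the genes at the most open regions, Sae1 was at 300.4 and 140 CPM (12.1% and 7.57% of cells), Ubac2 at 300.5 and 207 (15.4% and 15.9%) and Zrsr1 at 30.4 and 16.2 (13 and 8 cells, with opposite signs in the prefixes), while St3gal2 was seen in 1 cell. Cd7, the gene nearest to the most open region that lies between genes, went the other way. It was at 246 and 697 CPM (27.8% and 47.4% of cells), with the same sign in either prefix.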

How the data were processed

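WGBS reads were mapped by the authors' provider to mm10 (GRCm38) with BSMAP, and metilene was then used for the regions. The deposited fraction values are methylated over all reads of a cytosine (rounded to 2 decimals), or region means, with 1 value per group; how replicates were merged, the depth and the conversion rate were not given in the sources used here, so that precision is unknown. The q-value of a region is that deposited by the authors. Their column of differences was not used. The count values deposited by the authors are SmartSeq2 reads per gene and cell (STAR, GRCm38), and, for the multiome, fragments after Cell Ranger ARC with BWA-MEM; each fragment end was counted as an insertion, and fragment ends carry the shift of that software. CPM were computed from SmartSeq2 sums over the 273 of 284 untreated and 251 of 282 treated deposited cells whose names are in the study's sheet of cells (the study states 4 more untreated cells), with 1 CPM added before log2 and a minimum of 10 counts. Intervals are at 95% and cover counting error only, since reads without molecular identifiers are not independent molecules. The limit for a count of 0 is 3 counts.

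Genes were those of GENCODE M21, with promoters of 2 kb on either side of the outermost start of each gene. Of 55401 gene rows, 55141 had a name. Sequences came from the RefSeq copy of GRCm38, and CpG islands were regions of at least 200 bases, 50% GC and an observed over expected CpG ratio of 0.6. The members, gene lists and alternatives were chosen with earlier results of these data known. Named were the 10 regions with the lowest q-values, the 5 with the largest gain, the 5 lowest at protein-coding starts, the 5 most open, the 5 with the largest ratio between endings in each direction (at least 20 insertions), genes with 3 or more members, genes of the lists with a member, and the genes with the largest changes among those with at least 500 counts and reads in 20% of the cells of a group. Other genes were named after their values were seen. Scripts used pandas 2.3.3, scipy 1.17.1, pysam 0.24.0 and bedtools 2.31.1 and were tested on simulated data. Bulk ATAC-seq, histone ChIP-seq and the RNA part of the 10X data were not analysed here. Some results on single members are not reported here.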

Additional observations from a re-analysis of the deposited data

Results flagged for a closer look

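In the SmartSeq2 cells, genes of other cell types were found in the treated group. The macrophage markers Lyz2, C1qa and Csf1r summed to 1793 CPM in treated and 0.0116 CPM in untreated cells, and the hepatocyte markers Alb, Apoa1, Ttr and Serpina1a to 82.3 and 0 CPM. Lyz2 was seen in 4.38% of treated cells and Alb in 0.797%. None of these genes holds a gaining region of the kind described here. The number of overlapped genes at least 2-fold lower was 79 with and 81 without the cells concerned. At least 2-fold higher were 60 with and 57 without them. Over all protein-coding genes measured, 2528 (23.4%) were at least 2-fold higher with these cells and 2205 (21.2%) without them.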

How the results depend on the processing

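Of 71 alternative values, 55 were counted as the same. The range was 1.5-fold for a count, the 95% interval for a share or level, and 1 SD over regions for a mean or median density. The median log2 ratio of expression had no range and was judged by its sign alone, which did not change. For the other results a reversal was not looked for. The number of regions depends on the rule itself: it was 250 with at least 20 CpG cytosines, 744 with an untreated mean of at least 10% and 272 with at least 30%. The share in a gene body was 78.3% with protein-coding genes alone. The share at a start was 8.99% with 2 kb upstream alone, 9.65% with 1 kb on either side and 6.58% with protein-coding genes alone, against 17.5%. Normalised insertions per kb in ending 1 were 4.06 with at least 5000 fragments per barcode, 3.93 with no minimum and 5.30 as overlapping fragments; in ending 2 they were 2.25 with no minimum and 3.10 as fragments. With at least 50 insertions, 7 and not 13 members were 2-fold higher in ending 2. The number of overlapped genes at least 2-fold higher in treated cells was 37 with 5 CPM added, and with the member at the start in place of the body 9 were lower and 7 higher, from 25 genes. The median log2 ratio of overlapped genes stayed below 0, from -0.28 to -0.05. Limits are the 1 value per group, so that no replicate could be left out, the unknown read depth of the bisulfite data, and the low number of genes per SmartSeq2 cell. The alternatives that apply the rule to the cytosine table or leave out regions on which the tables differ, and those on shared barcodes, chromosomes X and Y, name prefixes and marker cells were chosen after seeing the data. No paired analysis was possible because the values used here do not separate the replicates or mice of a group. The samples whose labels share replicate numbers were not analysed here.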
